A study of Mus musculus with 12 samples.

Results

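Antibody-secreting cells are the end stage of B cell development, and 9 genes that mark the earlier B cell stage were followed in them: Cd79a, Cd79b, Ms4a1, Cd22, Ptprc, Pax5, Ebf1, Bach2 and Spib. The cells came from C57BL/6 mice aged 3 months that carry the Prdm1-eYFP reporter, in which a yellow fluorescent protein reports the plasma cell gene Prdm1. The sort took eYFP+ cells with the phenotype CD138HI and CD90.2-, IgD- and either positive or negative for B220 (B220+/-), from bone marrow, spleen and thymus, with 1 sort of 3 pooled mice and 1 droplet 5' RNA library per sex and tissue, so there were 2 libraries per tissue and 3 per sex. No label says whether 1 pool of mice gave all tissues of a sex. The p-values of tests by tissue and sex measure only the spread between these 6 libraries. Those of tests between groups of cells within a library measure only how that difference varies over these libraries. A barcode was kept when it held at least 1000 UMIs (unique molecular identifiers, 1 per captured RNA molecule) outside immunoglobulin genes and its leading light chain V gene gave at least 50% of its light chain V UMIs. This kept 8715 of 39949 filtered barcodes (21.8%), and the 9 genes are among 32285 measured.

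Below, 6 values in a row run in the order of bone marrow, spleen and thymus, each first female and then male, which is called library order. The kept cells numbered 1238, 1665, 3567, 1850, 107 and 288. The median depth was 2035 to 4352 UMIs outside immunoglobulin genes per cell. By the heavy chain constant gene with the most UMIs, 7093 cells were IgM, 491 IgA and 1131 IgG, and 3287 cells held a UMI of the proliferation genes Mki67 or Top2a and are called cycling here. The plasma cell identity of the sort showed in its markers: Prdm1 lay between 840 and 1068 CPM and Xbp1 between 3074 and 3708 CPM in the 6 libraries, where CPM is UMIs per 1000000 UMIs outside genes starting Igh, Igk or Igl. A summed list of 7 B cell markers lay between 134 and 204 CPM. Of the kept barcodes, 530 (6.08%) also occur in the filtered list of another library, and any pair of libraries shares 0 to 11 kept barcodes.

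In a mature B cell, Pax5 and Ebf1 are the transcription factors that hold the B cell program in place, Bach2 delays plasma cell differentiation, and Spib tunes antigen receptor signalling. Cd79a and Cd79b are the signalling chains of the B cell receptor, and the surface proteins CD20 (Ms4a1), CD22 and CD45 (Ptprc, whose long form is B220) sit beside it. When a B cell becomes a plasma cell, Blimp-1, the product of Prdm1, represses Pax5 and with it much of this program, while the receptor chains can persist, in particular in cells that keep surface IgM or IgA.

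Promoter sequence is shown for the genes in whose windows a motif of the EBF family, to which Ebf1 belongs, was found. The table of RefSeq promoters used here (GRCm38.p6) holds 9 windows from 250 bases before to 50 after a start for 7 of the 9 genes, and the promoters of Cd79b and Ms4a1 were not analysed here. The Cd79a stretch lies at chr7:24897247-24897380 on the + strand and ends at the base before the gene's first exon. Its capitals mark CAAGGGAAT, the EBF site described in this promoter, and then the E-box CAGGTG. The Cd22 stretch lies at chr7:30879058-30879087 on the - strand, inside the gene's annotated bounds, and its capitals mark the EBF palindrome, TCCC and GGGA parted by 2 bases.
Cd79a promoter: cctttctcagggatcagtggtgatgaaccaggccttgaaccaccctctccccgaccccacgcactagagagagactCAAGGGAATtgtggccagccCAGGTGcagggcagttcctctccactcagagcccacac
Cd22 promoter: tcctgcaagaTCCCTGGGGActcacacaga
Searched on both strands over all 32851 RefSeq windows of the same length, CAAGGGAAT was found in 0.244%, the EBF palindrome in 0.904% and CAGGTG in 20.2%. The E-box was found in the windows of Cd79a and Cd22. The octamer ATGCAAAT (1.74% of all windows), the PU.1 letters GAGGAAGT (3.2%) and the IRF and PRDM1 core, GAAAGT followed by GAAA (0.253%), were in none of the 9 windows, which says only that these letters are not there.

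The 9 genes fell into groups by how much of their RNA was found. Cd79a had 54919 UMIs in all and was seen in 85.3% of the kept cells, Cd79b had 36598 UMIs in 83.5%, and Ptprc had 11561 UMIs in 64.3%. Ms4a1 had 3531 UMIs in 25.6% of cells and Ebf1 had 1069 UMIs in 9.18%. The scarce ones were Bach2 with 420 UMIs in 4.36% of cells, Cd22 with 77 in 0.769%, Pax5 with 43 in 0.436% and Spib with 19 in 0.138%. These are counts of captured molecules per gene, and no order of transcript abundance between genes is read from them. The UMIs of the rarer genes were spread thinly: 81.3% of Ebf1-positive and 92.4% of Bach2-positive cells held a single UMI of the gene.

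The receptor chains were high in every library. Cd79a (chr7:24897381-24902197, + strand, GRCm38, GENCODE M21) was at 1052.5, 1096, 1395, 982, 733 and 902 CPM in library order. Cd79b (chr11:106311341-106314762, - strand) was at 669, 717, 912, 746, 650 and 530 CPM. For both chains the thymus libraries were the lowest pair and did not overlap the other tissues, but the difference was within the spread the fit allowed. The share of all genes with such a separation is not given here, so nothing is read from it.

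Among the surface genes, Ms4a1 (chr19:11249675-11266241, - strand) was at 71.95, 74.0, 80.05, 76.5, 34.0 and 96.7 CPM. Its 4 bone marrow and spleen libraries lay close together, and the thymus libraries were its lowest and its highest, resting on 9 and 115 UMIs. Ptprc (chr1:138062861-138175708, - strand), which encodes the pan-leukocyte phosphatase CD45, was at 244, 278, 191, 376, 582 and 336 CPM. Thymus and spleen overlapped for Ptprc, and the sexes differed in opposite directions in those tissues. Cd22 (chr7:30865402-30880342, - strand), an inhibitory coreceptor, gave 19, 23, 18, 16, 0 and 1 UMIs, so its levels of 3.34, 2.48, 0.846, 2.02, 0 and 0.841 CPM rest on few molecules.

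Of the transcription factors, Ebf1 (chr11:44617317-45008091, + strand) was at 21.5, 14.1, 26.7, 28.8, 15.1 and 12.6 CPM. The spleen libraries were the highest pair and overlapped neither other tissue, while bone marrow and thymus overlapped. Here too the share of all genes that separate in this way is not given. Bach2 (chr4:32238804-32586108, + strand) was at 10.6, 13.2, 5.73, 12.6, 7.56 and 10.9 CPM, with all tissues overlapping. Pax5 (chr4:44524757-44710487, - strand) gave 3, 7, 22, 11, 0 and 0 UMIs in library order, and Spib (chr7:44525993-44532071, - strand) gave 8, 5, 4, 2, 0 and 0. A count of 0 in the 107 and 288 thymus cells limits little, since 3 UMIs in female thymus would already be 11.3 CPM.

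**Figure D1:**
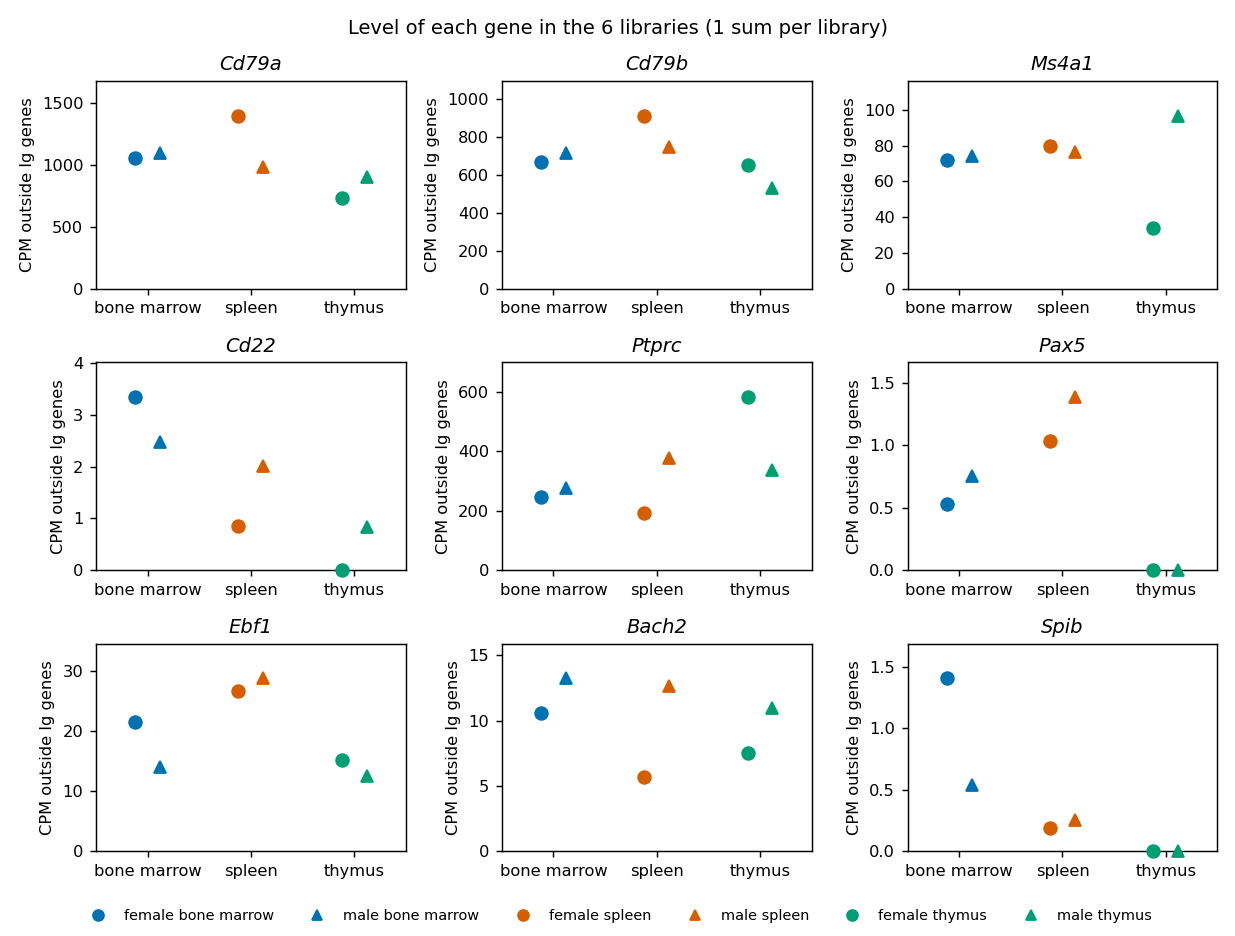
Level of each of the 9 genes (CPM outside immunoglobulin genes, y axis from 0, a scale per panel) in the 6 libraries, 1 point per library, circles for female and triangles for male. The spleen points of Ebf1, at 26.7 and 28.8 CPM, lie above all other Ebf1 points, and Pax5 and Spib are at 0 in both thymus libraries.

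How much of this could be RNA from outside the cell was read from barcodes of other cell types in the same libraries. In 106 barcodes with macrophage or T cell markers, Jchain, the joining chain of secreted IgM and IgA, was at 8498 CPM against 85513 CPM in the kept cells. Those barcodes had 3.90 CPM of Ms4a1 (2 UMIs) against 77.4 CPM in the kept cells, and no Ebf1 UMI (upper limit of the exact 95% interval 7.195 CPM, counting error only) against 23.4 CPM. Their Cd79a was 135 CPM against 1203 and Cd79b 78.0 CPM against 802, ratios of 0.112 and 0.0973 that are close to the 0.0994 of Jchain. Ms4a1, Ebf1, Cd79a and Cd79b lay above the level of these reference barcodes in the kept cells, and Ptprc, which macrophages and T cells also express, cannot be read this way.

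Pax5 and Spib were not above that level. The macrophage and T cell marker barcodes held 1.95 CPM of Pax5 (1 UMI) against 0.942 CPM in the kept cells, and 7.80 CPM of Spib (4 UMIs) against 0.416 CPM. Bach2, at 9.20 CPM in the kept cells, lay inside the 0.0494 to 10.9 CPM interval of the reference, and Cd22, at 1.69 CPM, lay under its upper limit of 7.195 CPM. For these 4 genes a level above the reference was not detectable at this depth. The median depth of the reference barcodes ranged from 1358 to 8046 UMIs over the libraries.

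Another estimate of free RNA gave lower ratios for Ms4a1 and Ebf1. It took the profile of barcodes with 10 to 100 UMIs outside the filtered list, scaled by the light chain V UMIs of the kept cells that were not of their leading gene. Counted UMIs of Ebf1 were 0.56, 0.408, 0.368, 0.49, 6.605 and 0.494 times those predicted, in library order, so Ebf1 lay below the prediction in 5 of 6 libraries. For Ms4a1 the ratios were 1.08, 1.203, 0.634, 0.70, 4.065 and 2.47, below 1 in both spleen libraries and near it in bone marrow. Cd79a, at 3.325 to 14.6 times the prediction, Cd79b, at 2.97 to 24.4 times, and Ptprc, at 1.51 to 43.8 times, lay above it in 6 of 6 libraries. Pax5, Spib and Cd22 lay below it in all 6, with ratios of at most 0.128, 0.138 and 0.303, and Bach2 lay on either side. In female thymus, however, only 0.114 Pax5, 0.139 Spib and 0.218 Cd22 UMIs were predicted, so a count of 0 says nothing there. The high female thymus ratios of Ebf1 and Ms4a1 rest on 4 and 9 UMIs against 0.606 and 2.21 predicted. For the neutrophil gene S100a8 the same profile predicted 1427 UMIs in female spleen, where 1 was counted, and 205.5 and 389 in female and male bone marrow, where 1019 and 3960 were. In female spleen it also predicted 410.5 Spib and 342 Pax5 UMIs, where 4 and 22 were counted. A count cannot lie below the free RNA it holds, so the profile predicted too much for such genes there. A ratio under 1 therefore does not show that the Ms4a1 or Ebf1 RNA was free. The estimates differed for these genes, and which is nearer was not tested.

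Barcodes with B cell markers gave the other end of the scale. There were 29 of them in 5 libraries, chosen by a criterion set after values had been seen: at least 300 UMIs, 2 B cell markers and under 2% of UMIs from Jchain, Xbp1 and Mzb1. Their levels were 181 CPM for Pax5, 372 CPM for Spib, 227 CPM for Cd22 and 109 CPM for Bach2. No fold is given for these genes, whose kept-cell levels were not detectably above the macrophage and T cell reference. Ebf1 was 43.0-fold higher than in the kept cells at 1007 CPM and Ms4a1 11.3-fold at 871 CPM. Cd79b was 3.24-fold higher at 2595 CPM, Cd79a 3.05-fold at 3666 CPM and Ptprc 2.15-fold at 544 CPM. As B cell genes help to choose these barcodes, the folds are a description and carry no test.

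The part of B cells among the kept barcodes in these levels was not tested. Ebf1 had a small tail of rich barcodes: 9 of the 800 Ebf1-positive cells held 5 or more UMIs, up to 29, and together 9.35% of its UMIs, and their leading heavy chain gene was Ighm or an Ighg gene. Of these 9, an IgM barcode of female bone marrow held 15 Ebf1, 19 Ms4a1 and 16 Vpreb3 UMIs beside 22 of Jchain and none of Prdm1 or Sdc1, and an IgM barcode of male bone marrow held 18 Ebf1 UMIs and none of Prdm1. All others of the 9 held Prdm1, with 2 to 18 UMIs. The richest, an IgM barcode of male bone marrow with 29 Ebf1 UMIs, held 2311 of Jchain, 42 of Xbp1, 18 of Prdm1 and 5 of Sdc1. The 17034 barcodes with enough UMIs but no dominant light chain gene held more of the B cell transcription factors and less Jchain, with 3.98 CPM of Pax5, 54.5 of Ebf1, 5.30 of Spib and 36876 of Jchain, while their Ms4a1 level of 76.2 CPM was near the 77.4 of the kept cells.

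**Figure D2:**
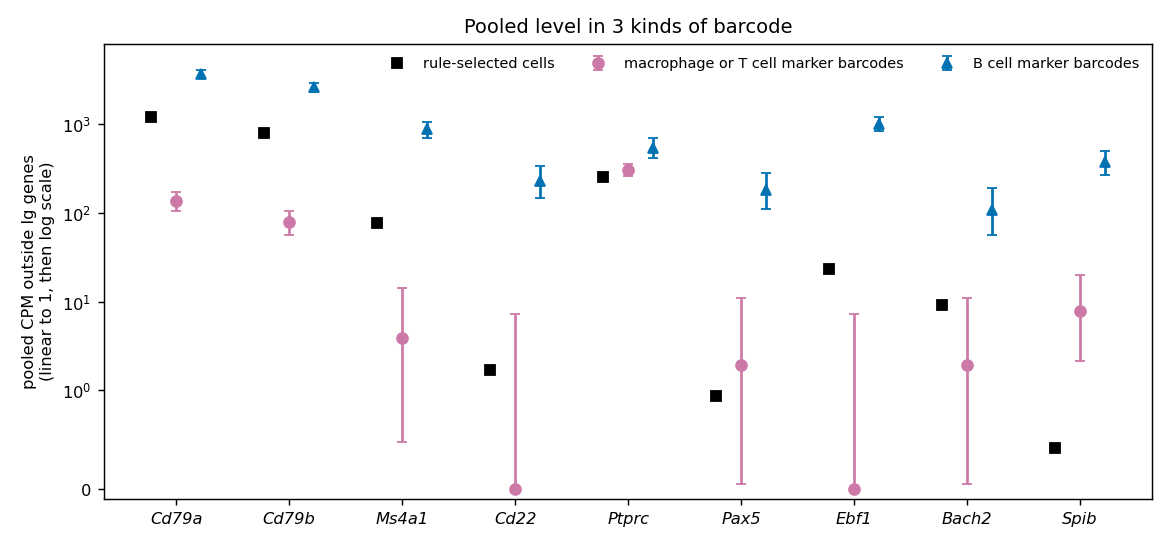
Pooled level of each gene (CPM outside immunoglobulin genes, linear to 1 and then log scale) in the kept cells (black squares), in 106 barcodes with macrophage or T cell markers (pink circles) and in 29 barcodes with B cell markers (blue triangles), with exact 95% Poisson intervals that cover counting error only. Pax5 at 0.942 CPM and Spib at 0.416 CPM in the kept cells lie at or below the pink points, and Ms4a1, Ebf1, Cd79a and Cd79b lie above them.

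Between tissues and between the sexes, none of the 7 genes with enough counts to test was called. Counts summed per library were fitted with edgeR's quasi-likelihood test on sex and tissue over 11239 genes, with Benjamini-Hochberg adjustment at 0.05, and Pax5 and Spib fell to the filter on low counts. Thymus against bone marrow had 0 of 7 genes called where 0.765% of all genes were, thymus against spleen 0 of 7 where 0.632% were, spleen against bone marrow 0 of 7 where 0.436% were, and male against female 0 of 7 where 0.427% were. At an unadjusted p under 0.05 the counts were 0, 1, 2 and 0 genes, and DESeq2 called 0 in each. With shares of all genes this small, 0 of 7 is what the background gives.

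Ebf1 came nearest to a tissue difference. It was lower in thymus than in spleen at a log2 fold change of -1.23 with SE 0.39 (edgeR adjusted p = 0.235) and its spleen to bone marrow log2 fold change was 0.68 (SE 0.25, edgeR adjusted p = 0.507). The 2 spleen libraries held more Ebf1 than the 2 of bone marrow, and the call turned on which cells were summed. Leaving out 1 library gave spleen to bone marrow log2 fold changes of 0.48 to 0.92. The alternatives that called Ebf1 are among those given next. The shares of all genes called in them are not given here, so no tissue difference is read from them. With only non-cycling IgM cells the spleen to bone marrow log2 fold change was 1.41 (edgeR adjusted p = 0.0023), with levels of 19.2 and 6.41 CPM in bone marrow and 29.4 and 32.8 CPM in spleen. Without the barcodes holding at least 2 B cell marker UMIs it was 1.18 (adjusted p = 0.041). Without the 9 Ebf1-rich barcodes, an alternative chosen after seeing the data, it was 1.24 (adjusted p = 0.018). Those 9 were picked by Ebf1 itself, 4 and 2 from female and male bone marrow and 3 and 0 from female and male spleen. No support for a tissue difference is read from that value. Subtracting the free RNA profile, which predicted more Ebf1 than was counted in all 4 of these libraries, left small remainders with a log2 fold change of -7.29 (adjusted p = 0.307), from which no direction is read.

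Few genes of the surrounding B cell program were called between tissues or sexes, where 0.427% to 0.765% of all genes were. Of the 25 genes of a list of B cell receptor signalling and coreceptors, 25 were tested and 1 fell in thymus against spleen: Vpreb3, whose protein binds newly made heavy chains in early B cells, by 3.03 on the log2 scale (SE 0.59, edgeR adjusted p = 0.0061), and in males against females by 1.27 (SE 0.28, edgeR adjusted p = 0.029). Vpreb3 was at 24.98, 14.96, 44.5, 16.9, 0 and 4.21 CPM in library order. Its thymus values rest on 0 and 5 UMIs, and the female library was the higher one in bone marrow and spleen but not in thymus. In 22 B cell transcription factors, 20 were tested and 1 fell in males against females, Klf2, by 2.07 (SE 0.25, edgeR adjusted p = 6.4e-06). Among 21 mature B cell surface genes, 16 were tested, and S1pr1, an exit receptor for lymphocytes, rose in spleen against bone marrow by 1.81 (SE 0.37, edgeR adjusted p = 0.012), while Ltb fell in thymus against bone marrow by 1.68 (SE 0.39, edgeR adjusted p = 0.028).

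Ms4a1 fell and Ebf1 rose in IgA against IgM cells, and Cd79b rose in IgG against both other classes. These tests sum cells per library and class (18 sums) and fit library and class, so that each class is compared within its library. Of the 9 genes 5 were tested among 7400, as Pax5, Spib, Cd22 and Bach2 had too few counts in the small IgA and IgG sums, the smallest of which held 17 cells. In IgA against IgM 2 of 5 were called where 7.65% of all genes were, in IgG against IgM 1 of 5 where 12.6% were, and in IgG against IgA 3 of 5 where 10.4% were. The first and last counts are above their background shares, and 1 of 5 is near its own. The first and last comparisons share their IgA sums. As the 9 genes were chosen with earlier results of these data known, the counts are a description and carry no test.

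Ms4a1, which encodes the surface protein CD20, was at 79.4, 75.8, 84.8, 79.9, 39.1 and 89.4 CPM in IgM cells in library order. In IgA cells it was at 19.0, 51.9, 38.6, 13.3, 22.9 and 113 CPM. IgA was lower in 5 of 6 libraries and higher in male thymus, which has 26 IgA cells, and the ranges of the classes overlap. The log2 fold change was -1.08 (SE 0.20, edgeR adjusted p = 3.0e-04). In IgG cells Ms4a1 was at 48.6, 46.1, 75.6, 60.5, 23.9 and 123 CPM, above IgA in 5 of 6 libraries, and the log2 fold change was 0.78 (SE 0.22, edgeR adjusted p = 0.018), and against IgM the IgG value of -0.30 on the log2 scale was not called (adjusted p = 0.175). The IgG to IgA difference lost its call in 3 of 6 fits that left out a library, with a log2 fold change of 0.54 (adjusted p = 0.417) without female spleen.

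Ebf1 went the other way. In IgM cells it was at 16.1, 11.7, 27.1, 29.8, 16.8 and 10.1 CPM in library order, and in IgA cells at 68.98, 89.0, 27.3, 46.4, 22.9 and 16.1 CPM. IgA was higher in 6 of 6 libraries, most in bone marrow and least in female spleen, and the thymus values rest on 1 and 2 Ebf1 UMIs in IgA cells. The log2 fold change was 1.13 (SE 0.29, edgeR adjusted p = 0.0115). Without male bone marrow it was 0.71 (adjusted p = 0.151), and without female bone marrow Ebf1 had too few counts to be tested. IgG cells, at 30.6, 15.4, 25.1, 17.9, 0 and 23.5 CPM, were below IgA cells in 5 of 6 libraries at a log2 fold change of -1.06 with SE 0.33 (edgeR adjusted p = 0.036). That IgG to IgA call was lost in 10 of 19 alternatives, with a log2 fold change of -0.71 (adjusted p = 0.163) without male bone marrow.

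Cd79b, the beta chain of the receptor's signalling pair, was at 646, 711, 862, 713, 575 and 507 CPM in IgM cells, 519, 501, 756, 604, 642 and 476 CPM in IgA cells, and 974, 1051, 1138, 1030, 978 and 687 CPM in IgG cells, again in library order. IgG was the highest class in 6 of 6 libraries, although the ranges of the classes over all libraries overlap. Against IgM the log2 fold change was 0.49 (SE 0.11, edgeR adjusted p = 0.0015) and against IgA it was 0.72 (SE 0.12, edgeR adjusted p = 6.7e-05). The IgG to IgA call held in 20 of 20 alternatives and the IgG to IgM call in 19 of 20. Its partner Cd79a was not called in any class comparison: its log2 fold changes were 0.28 for IgA against IgM (adjusted p = 0.264), -0.06 for IgG against IgM (adjusted p = 0.845) and -0.34 for IgG against IgA (adjusted p = 0.141). Whether the 2 chains differ in their response to class was not tested.

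**Figure D3:**
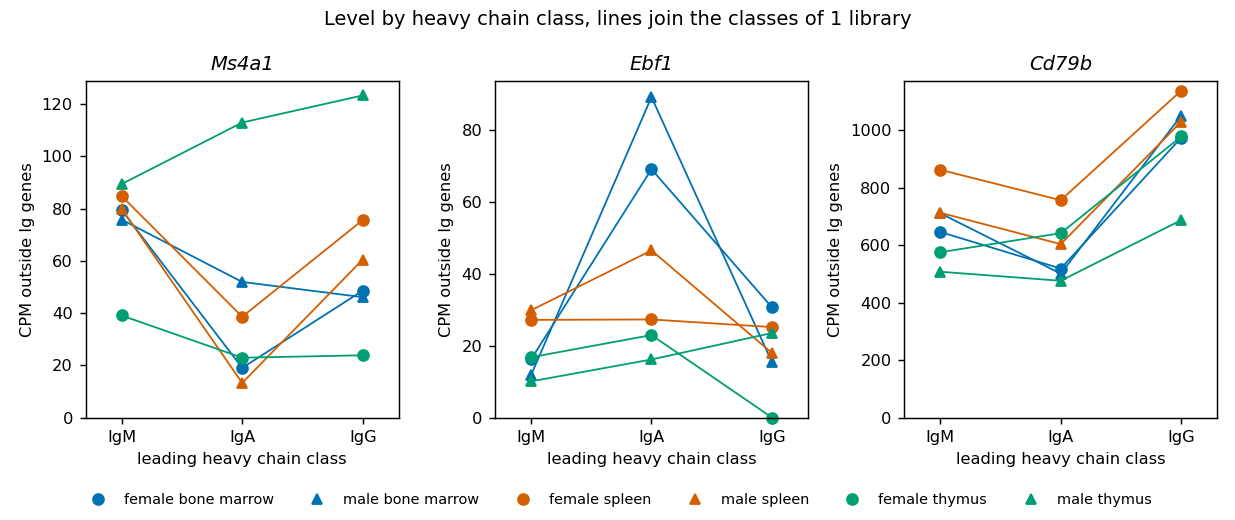
Level of Ms4a1, Ebf1 and Cd79b (CPM outside immunoglobulin genes, y axis from 0) by leading heavy chain class, with a line joining the classes of each library. Ebf1 reaches 68.98 and 89.0 CPM in IgA cells of bone marrow, Ms4a1 is lower in IgA than in IgM cells in 5 of 6 libraries, and Cd79b is highest in IgG cells in 6 of 6.

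Ptprc in IgA cells was lower than in IgM cells in 5 of 6 libraries, at a log2 fold change of -0.35 with SE 0.14 (edgeR adjusted p = 0.136) that was not called. Bach2, too sparse for the fit, was at 11.3, 13.7, 6.22, 13.9, 11.2 and 14.5 CPM in IgM cells in library order, and at 5.40, 3.07, 3.43, 1.12, 0 and 0 CPM in IgG cells. The 2 ranges do not overlap, but the IgG values rest on 3, 1, 15, 1, 0 and 0 UMIs, and there is no share of called genes to set them against. Over all kept cells Bach2 was not detectably above the reference barcodes, whose interval, from 1 UMI, reached 10.9 CPM. The IgM levels lay on either side of that limit. Pax5, Spib and Cd22 had too few UMIs for a comparison by class.

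The fall of Ms4a1 in IgA cells stood beside lower levels of the 7 B cell markers. Their summed level was 145 to 229 CPM in IgM, 28.5 to 113 CPM in IgA and 95.4 to 169 CPM in IgG cells. Without the 1575 barcodes with at least 2 such UMIs the Ms4a1 log2 fold change was -1.07 (edgeR adjusted p = 0.0028) and that of Ebf1 was 1.49 (edgeR adjusted p = 0.0036), but barcodes with 0 or 1 such UMI stay in this fit. The 5 pro- or pre-B cell markers, Dntt, Vpreb1, Rag1, Rag2 and Il7r, were at 0 in IgA cells of both bone marrow libraries, where 3 UMIs would be 7.14 and 11.1 CPM, and summed to 0.581 to 7.82 CPM in IgM cells of the 6 libraries, so a difference was not detectable at this depth. Vpreb3, which early B cells express and which is in the receptor list, was higher in those IgA cells, as given below with its values. The summed neutrophil markers were at 467 and 1414 CPM in IgM cells of the female and the male bone marrow library and at 112 and 92.7 CPM in their IgA cells, and their part in the class differences was not tested. The 5 plasmacytoid dendritic cell markers summed to 24.2 to 183 CPM in IgA and 11.2 to 58.1 CPM in IgM cells, with medians of 99.7 and 39.1 CPM, and their part in the class differences was not tested either. Siglech, a defining marker, was at 0 in IgA cells of all 6 libraries, where 3 UMIs would be 2.27 to 68.8 CPM, and in IgM cells of 3 of 6. The sum of the list went the other way, and 1 gene does not stand for it.

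The class difference of Ebf1 differed between tissues in edgeR's fit. A joint test of class by tissue called 1 of 5 genes where 0.36% of all genes were: Ebf1, with an edgeR adjusted p of 0.0047. A fit chosen after this result gave Ebf1 log2 fold changes for IgA against IgM of 2.46 in bone marrow (SE 0.30, adjusted p = 8.3e-08, 4.41% of all genes called), 0.09 in spleen (SE 0.28, adjusted p = 0.954, 2.32% called) and 0.65 in thymus (SE 1.06, adjusted p = 0.956, 0.199% called). For IgG against IgA the same fit gave -1.78 in bone marrow (SE 0.39, edgeR adjusted p = 0.0029), where 268 of 8058 genes were called. In spleen it gave -0.32 (adjusted p = 0.688, 371 called) and in thymus 0.09 (adjusted p = 0.996, 12 called). Counted cell by cell, 22 of 108 IgA cells of female and 16 of 60 of male bone marrow held an Ebf1 UMI, against 44 of 1007 and 51 of 1537 IgM cells. No IgA cell in any library held 5 or more, so the bone marrow level came from many cells with 1 to 4 UMIs.

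With each cell thinned to 1000 UMIs, so that depth is equal, 9.26% of IgA and 1.49% of IgM cells of female bone marrow held an Ebf1 UMI, and 8.33% against 0.846% in the male. In spleen the thinned shares were 4.53% against 2.94% in the female and 11.1% against 2.88% in the male, the male IgA share being 4 of 36 cells. In thymus they were 0% against 1.39%, where 0 of 18 IgA cells has an exact 95% upper limit of 18.5%, and 3.85% against 0.881%. The exact 95% intervals of the 2 classes did not overlap in either bone marrow library, but they cover counting error within a library and not the spread between libraries. The joint test lost its call on the thinned counts (edgeR adjusted p = 0.991), without female spleen (0.557), after free RNA subtraction (0.958) and with a light chain share of at least 80% (0.0552), and kept it in the other edgeR fits, between 1.1e-05 and 0.048. DESeq2's joint test gave Ebf1 an unadjusted p of 6.8e-04 with no adjusted p, and called Cd79a (adjusted p = 0.023), which edgeR did not (adjusted p = 0.848).

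**Figure D4:**
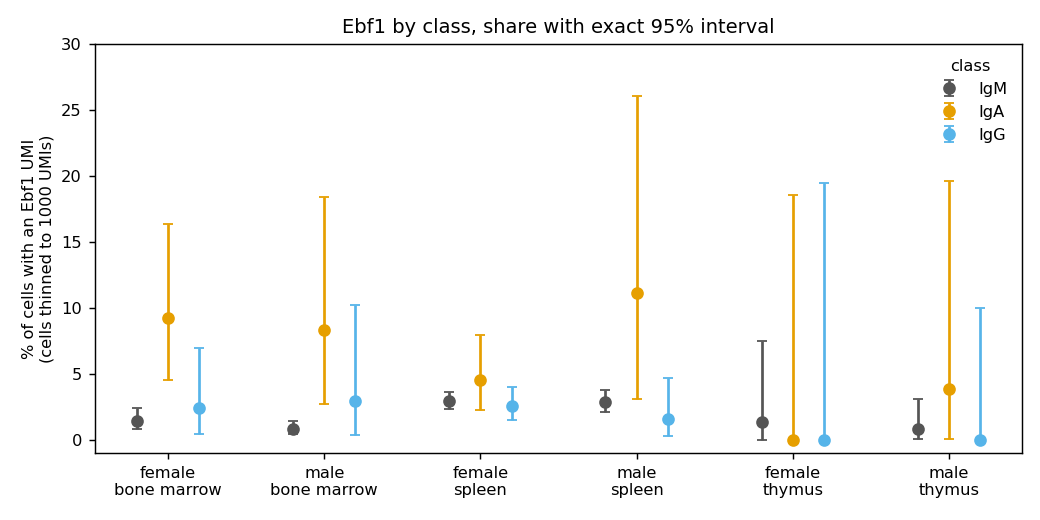
Share of cells with an Ebf1 UMI (percent, each cell thinned to 1000 UMIs) by class in each library, with exact 95% binomial intervals that cover counting error only. In bone marrow the IgA shares of 9.26% and 8.33% lie above the IgM shares of 1.49% and 0.846%, and in thymus the intervals are wide.

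For Ms4a1 the joint test did not pass (edgeR adjusted p = 0.581, unadjusted 0.0105). Its IgA to IgM log2 fold change was -1.26 in bone marrow (SE 0.30, edgeR adjusted p = 0.0075) and -1.25 in spleen (SE 0.22, edgeR adjusted p = 2.0e-04), and 0.23 in thymus (SE 0.45, edgeR adjusted p = 0.958). Its IgG to IgM log2 fold change was -0.83 in bone marrow (SE 0.24, edgeR adjusted p = 0.033), where 417 of 8058 genes were called. In spleen it was -0.21 (adjusted p = 0.444, 583 called) and in thymus 0.41 (adjusted p = 0.880, 46 called). In 6 of 6 fits without 1 library the IgA to IgM call of Ms4a1 held, with log2 fold changes between -1.28 and -0.92. It was lost with free RNA subtracted (-0.49, adjusted p = 0.747) and in the fit with no library term (-0.96, adjusted p = 0.069).

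The wider B cell program moved by class in both directions. In IgA against IgM cells, where 7.65% of all 7400 genes were called (277 higher and 289 lower), 1 of 23 tested receptor signalling genes rose and 9 fell (median log2 fold change -0.21, against -0.01 over all genes). The one that rose was Vpreb3 (log2 fold change 2.07, SE 0.29, edgeR adjusted p = 9.6e-06), at 124 and 104 CPM in IgA and 15.7 and 12.5 CPM in IgM cells of the female and the male bone marrow library. Among those that fell were Bank1 (-1.95), an adaptor of the receptor, the Src-family kinase gene Blk (-1.25) and the phosphatase gene Ptpn6 (-0.97). Of 16 tested transcription factors 1 rose, Klf2 (2.27, SE 0.25, edgeR adjusted p = 2.6e-08), a regulator of lymphocyte trafficking, and 1 fell, Irf8 (-1.19, SE 0.18, edgeR adjusted p = 2.4e-05), a share near the background. Of 10 tested surface genes 2 rose, among them Cd69 (0.85), and 4 fell, among them the chemokine receptor gene Cxcr4 (-1.84). Of 19 tested plasma cell genes 7 rose and 3 fell (median 0.31), with Cd28 (0.88) and Tnfrsf17 (0.83), which encodes the survival receptor BCMA, among the risen and Sub1 (-0.57) among the fallen.

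In IgG against IgM cells, where 12.6% of all genes were called (418 higher and 517 lower), 4 of the 23 receptor signalling genes rose and 4 fell (median 0.09, against 0.01 over all genes). Ptpn6 fell by 2.05 on the log2 scale (SE 0.14, edgeR adjusted p = 2.7e-13) and Blk by 1.56 (SE 0.17, edgeR adjusted p = 2.8e-08), while Vpreb3 rose by 1.61 (SE 0.24, edgeR adjusted p = 8.3e-06). Vpreb3 was higher in IgG than in IgM cells in 3 of 6 libraries, with 28.8 against 15.7 CPM in female bone marrow, 101 against 26.5 in female spleen and 31.4 against 14.5 in male spleen. It was lower in male bone marrow (6.15 against 12.5 CPM) and male thymus (0 against 2.24), and at 0 in both classes in female thymus. Female spleen held 444 of its IgG UMIs, 49 of them in 1 cell, against 16, 2 and 28 in the other bone marrow and spleen libraries. Of the 16 transcription factors 2 rose and 3 fell, the 3 being Relb (-1.35), Irf8 (-0.75) and Pou2af1 (-0.61), the last a coactivator of octamer-dependent transcription. Of 10 surface genes 1 rose, Fcrl1 (0.53), and 1 fell, Cd83 (-1.71), a share near the background. Of the plasma cell genes 6 rose and 4 fell, with Tnfrsf17 (-1.78) and Jchain (-0.73) among the fallen. These comparisons share the IgM sums with IgA against IgM, so no likeness between them is read.

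Cycling cells held less Ms4a1 and Cd79a. This compared cells with and without an Mki67 or Top2a UMI within each library (12 sums), and 2 of 7 tested genes were called where 23.9% of all 10768 genes were, a share near the background. Cd79a was at 871, 947, 1224, 889, 416 and 724 CPM in cycling cells in library order, against 1164, 1187, 1577, 1067, 901 and 988 CPM in the other cells. It was lower in 6 of 6 libraries, at a log2 fold change of -0.46 with SE 0.09 (edgeR adjusted p = 3.4e-04). Ms4a1 was at 57.9, 57.9, 76.6, 68.7, 32.8 and 62.1 CPM in cycling cells against 80.6, 83.8, 83.7, 83.6, 34.6 and 113 CPM, again lower in 6 of 6, at a log2 fold change of -0.37 with SE 0.08 (edgeR adjusted p = 8.1e-04).

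The other tested genes did not pass. Cd79b had a log2 fold change of -0.16 (edgeR adjusted p = 0.198), Ptprc 0.03 (0.817), Ebf1 -0.09 (0.727) and Cd22 -0.36 (0.593). Bach2 had -0.41 (adjusted p = 0.090) and was called without male bone marrow (-0.63, adjusted p = 0.017). In IgM cells alone the log2 fold changes of Cd79a and Ms4a1 were -0.47 (edgeR adjusted p = 6.5e-06) and -0.38 (adjusted p = 2.4e-04). A joint test of cycling by tissue called 0 of 7 genes with edgeR, where 0.0929% of all genes were called. Ms4a1 was the 1 gene with an unadjusted p under 0.05 (0.018), and DESeq2 called 0.

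Depth and markers of another cell type also moved with cycling. The median depth was 2074 to 5629 UMIs in cycling and 1991 to 3687 UMIs in other cells, and a deeper cell is more likely to show an Mki67 or Top2a UMI. Thinned to equal depth before cells were divided, 11.1% to 26.2% of cells per library were cycling instead of 23.6% to 42.0%, and Cd79a (-0.70, edgeR adjusted p = 1.8e-14) and Ms4a1 (-0.56, adjusted p = 0.016) were still called, with Cd79b added (-0.29, adjusted p = 0.0071). The 5 neutrophil markers summed to 911 and 3379 CPM in cycling cells of the female and the male bone marrow library against 94.5 and 88.0 CPM in the others. In the spleen and thymus libraries 0 to 2 neutrophil marker UMIs were found in either kind of cell, and the part of neutrophil RNA in the cycling differences was not tested. Within single tissues, the log2 fold change of Ms4a1 was -0.58 in bone marrow (edgeR adjusted p = 0.0011, 9.25% of all genes called), -0.19 in spleen (0.227, 10.6% called) and -0.90 in thymus (0.159, 2.78% called). That of Cd79a was -0.43 in bone marrow (edgeR adjusted p = 0.094), -0.33 in spleen (0.212) and -0.80 in thymus (0.031), so each gene was called in 1 tissue of 3. With a floor on plasma cell markers, which 8262 cells passed, the log2 fold changes were -0.46 for Cd79a (edgeR adjusted p = 1.6e-04) and -0.36 for Ms4a1 (8.0e-04).

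**Figure D5:**
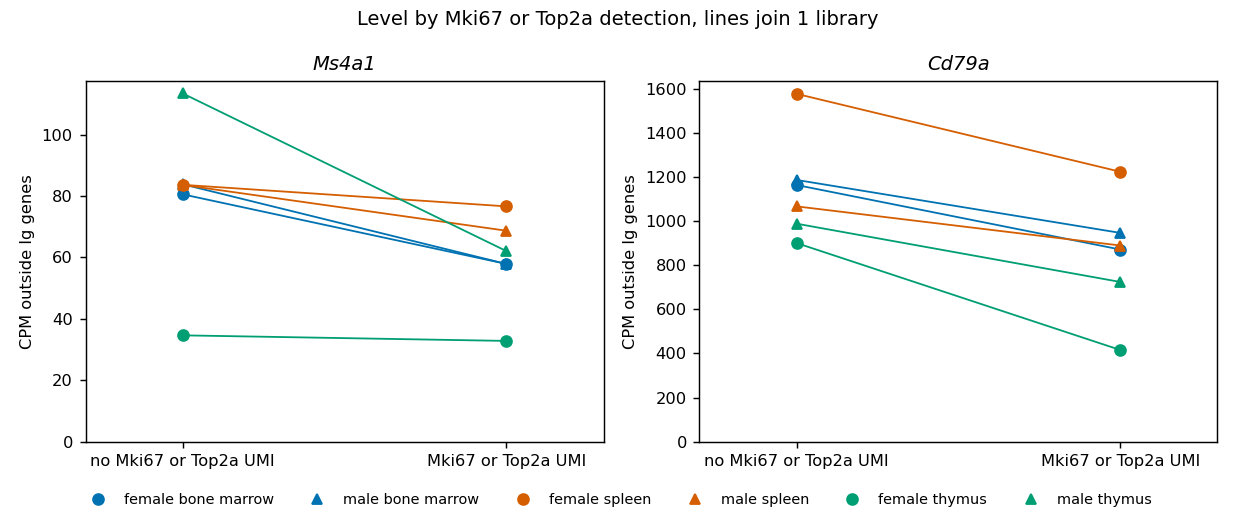
Level of Ms4a1 and Cd79a (CPM outside immunoglobulin genes, y axis from 0) in cells without and with an Mki67 or Top2a UMI, with a line for each library. All 6 lines fall in both panels, by little for Ms4a1 in female thymus (34.6 to 32.8 CPM).

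Of all 10768 genes 1522 were higher and 1052 lower in cycling cells (23.9% called). Among the lists, cycling cells had 5 of 15 tested mature B cell surface genes lower and 1 higher (median log2 fold change -0.25, against -0.02 over all genes), 4 of 20 transcription factors lower and 2 higher, and 3 of 24 receptor signalling genes lower and 3 higher, the shares of the last 2 lists being near the background. Of 19 plasma cell genes 7 were lower and 1 higher (median -0.15).

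Across the 32 sums by library, class and cycling, the genes whose log2(CPM + 1) followed the members most closely were sought among 7877 genes. Cd79a followed Jchain (Pearson r = 0.817), Cd79b followed Itm2b (0.835) and B2m (0.765), and Ptprc followed Man1a (0.877) and Inpp5d (0.843), a phosphatase of receptor signalling. Ms4a1 followed Mrpl17 (0.809), Ebf1 followed Retreg3 (0.776), Bach2 followed Nif3l1 (0.703) and Cd22 followed Scand1 (0.56). The sums share libraries and depth, each r is the highest of many, and none is a test.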

How the data were processed

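The authors deposited UMI counts per gene and barcode, filtered and unfiltered, for 6 droplet 5' gene expression libraries. The counts were made with Cell Ranger 6.0.2 on mm10 (GRCm38), per the submitters' processing notes and the headers of the filtered matrices, while the headers of the unfiltered ones name Cell Ranger 4. The receptor (VDJ) libraries were not used here.

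Counts were summed per library, per class and per cycling state (sums of at least 10 cells), without symbols starting Igh, Igk or Igl. They were tested with edgeR 4.0.16 in R 4.3.3 (quasi-likelihood F-test, filterByExpr, TMM scaling, Benjamini-Hochberg over all genes tested at 0.05). The tissue fit has 2 residual degrees of freedom, the class fit 10 and the cycling fit 5. Each SE is the absolute log2 fold change divided by the square root of the F statistic. The code was tested on simulated data. Shares, references and motifs were computed with Python 3.11.15, numpy 2.4.6 and scipy 1.17.1. Cells with tied heavy chain genes (9) took the first of Ighm, Igha and the Ighg genes. No doublet caller was run, and cells were not clustered. Some marker genes are not reported here.

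The 9 genes and the lists were chosen with earlier results of these data known. The text names the 9 genes everywhere, at most 4 genes per list and comparison (called, largest fold change), and the genes most like each member with at least 50 UMIs among genes of at least 10 CPM. Alternatives were DESeq2 1.42.0 as test or as scaling, no filter on low counts, 2000 UMIs, a light chain share of 80%, under 10% mitochondrial UMIs, no B cell marker barcodes, a plasma cell floor, free RNA subtraction, cells thinned to 1000 UMIs, single classes or cycling states, no library term, leaving out each library and, added after seeing the data, leaving out Ebf1-rich or shared barcodes. Intervals are exact at 95% and cover counting error only.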

Additional observations from a re-analysis of the deposited data

Results flagged for a closer look

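Ebf1 was singled out because edgeR's joint test of class by tissue gave it an adjusted p of 0.0047 in the main fit. The log2 fold change of IgA against IgM was 2.46 in bone marrow, 0.09 in spleen and 0.65 in thymus. That call was lost on thinned counts, without female spleen, after free RNA subtraction and with a stricter light chain share. DESeq2's joint test gave Ebf1 no adjusted p. The spleen value rests on 243 female and 36 male IgA cells. Thinned shares with an Ebf1 UMI there were 4.53% of IgA against 2.94% of IgM cells in the female library. In the male library they were 11.1% against 2.88%. A difference between tissues is therefore not settled.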

How the results depend on the processing

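Of the 8 calls of single genes by class or cycling state, Cd79b in IgG against IgA held in 20 of 20 alternatives, Ms4a1 and Cd79a in cycling cells in 20 of 21, Cd79b in IgG against IgM in 19 of 20, Ebf1 and Ms4a1 in IgA against IgM in 18 and 17 of 19, and Ms4a1 and Ebf1 in IgG against IgA in 11 and 9 of 19. For Ebf1 in IgA against IgM, the fit without female bone marrow could not be tested and is not among the 19. That call was lost without male bone marrow. The 19 include leaving out the Ebf1-rich barcodes, which were picked by Ebf1 itself and held no IgA cell. They also include the fit with free RNA subtracted, where Ebf1 kept its call. Over the 19 its log2 fold changes ran from 0.71 to 6.45. For Ms4a1 in IgA against IgM, the fit with thinned cells could not be tested and is not among its 19. The cause of a lost call was not tested. Depth limits what Pax5, Spib, Cd22, Bach2 and the thymus libraries can show, and the within-tissue fits were not repeated under the alternatives. With free RNA subtracted, the profile predicted more Ebf1 than was counted in 5 of 6 libraries and more Ms4a1 in both spleen libraries, so their fold changes there are ratios of small remainders.

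The number of genes called in spleen against bone marrow went from 0 to 1 without B cell marker barcodes, with free RNA subtracted, without Ebf1-rich barcodes and in non-cycling IgM cells, and in thymus against spleen from 0 to 1 with free RNA subtracted. In IgA against IgM it went from 2 to 1 with free RNA subtracted, with thinned cells (4 genes tested, without Ms4a1) and with no library term, in IgG against IgM from 1 to 2 with no filter and at 2000 UMIs and to 0 with no library term, and in IgG against IgA from 3 to 1 at a light chain share of 80%, with free RNA subtracted and with no library term. Class by tissue went from 1 to 0 at a light chain share of 80%, with free RNA subtracted and with thinned cells, and cycling from 2 to 0 with no library term. Leaving out 1 library gave 1 to 3 called genes in IgA against IgM (1 without either bone marrow library), 1 to 3 in IgG against IgA (1 without female bone marrow or male spleen), 1 to 2 in IgG against IgM (2 without either thymus library), 0 to 1 in class by tissue (0 without female spleen), 0 to 1 in cycling by tissue (1 without female bone marrow) and 2 to 3 in cycling. Without barcodes shared between libraries the counts did not move, but Ebf1 in IgG against IgA lost its call and Cd79a gained one (log2 fold change -0.47). Thinning moved the median share of cells with a UMI to 6.655% for Ms4a1, 1.73% for Bach2, 51.0% for Cd79a, 43.4% for Cd79b and 31.8% for Ptprc.

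Of 1226 alternative values, 61 changed sign, 2 of them called. The 1226 include counts of called genes and shares of cells, which have no sign to change. With free RNA subtracted, log2 fold changes in thymus against bone marrow became 1.47 (Ms4a1), 0.84 (Ebf1) and 1.24 (Bach2), in thymus against spleen 10.64 (Ms4a1, called), 8.13 (Ebf1) and 5.49 (Bach2), in spleen against bone marrow -9.18 (Ms4a1, called), -7.29 (Ebf1) and -0.20 (Ptprc), in male against female 0.27 (Ptprc), and in cycling cells 0.0561 (Ebf1) and 0.91 (Bach2). In thymus against bone marrow, Ebf1 became 0.0629 without B cell marker barcodes and 0.0289 without Ebf1-rich ones, and Cd79b 0.21 in non-cycling IgA cells. In thymus against spleen, Bach2 became 0.41 without shared barcodes and 0.17 in non-cycling IgM cells, and Cd22 0.10 in non-cycling and 0.63 in non-cycling IgM cells. In spleen against bone marrow, Ptprc became -0.15 at a light chain share of 80%, -0.13 with thinned cells and -0.21 in non-cycling IgA cells, where Cd79a became -0.0553. In male against female, Ms4a1 became -0.0376 at 2000 UMIs, -0.0293 without shared barcodes and -0.0204 in non-cycling IgM cells, Ptprc 0.0510 at 2000 UMIs, 0.0032 without B cell marker barcodes and 0.61 in non-cycling IgA cells, Cd79a 0.0418 at a light chain share of 80%, and Cd22 -0.0138 without B cell marker barcodes, -0.45 in non-cycling and -0.58 in non-cycling IgM cells. Ptprc in IgG against IgM became 0.0331 at a light chain share of 80%, Ebf1 in cycling cells 0.0129 with DESeq2, 0.24 at a light chain share of 80% and 0.0737 with thinned cells, and Ptprc in cycling cells -0.0047 with no library term.

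Leaving out 1 library turned the sign of uncalled log2 fold changes. They ranged from -0.32 to 0.16 for Bach2, -1.70 to 0.17 for Ms4a1 and -0.11 to 0.92 for Ptprc in thymus against spleen, and from -1.58 to 0.29 for Ms4a1 and -0.0486 to 0.981 for Ptprc in thymus against bone marrow. In spleen against bone marrow they ranged from -0.29 to 0.51 for Ms4a1, -0.39 to 0.67 for Cd79a, -0.0176 to 0.559 for Cd79b and -0.39 to 0.49 for Ptprc. In male against female they ranged from -0.27 to 0.34 for Ms4a1, -0.51 to 0.85 for Cd22, -0.48 to 0.16 for Cd79a and -0.32 to 0.33 for Ptprc. The range was -0.120 to 0.0195 for Cd79a in IgG against IgM and -0.319 to 0.0340 for Ebf1 in cycling cells.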

Other observations

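Female spleen held the most IgG cells, and Ebf1 was there at 27.8 CPM in 66 Ighg1 cells, 15.6 CPM in 308 Ighg2b cells, 40.3 CPM in 236 Ighg2c cells and 17.7 CPM in 94 Ighg3 cells, from 11, 29, 58 and 12 UMIs. In male spleen it was at 25.6 CPM in 74 Ighg2b and 22.6 CPM in 63 Ighg2c cells, from 8 and 7 UMIs; 16 Ighg1 and 31 Ighg3 cells held 1 and 0 UMIs, and no order of the subclasses is read from counts this small. Ms4a1 in female spleen was at 58.1 CPM in Ighg1, 68.7 CPM in Ighg2b, 99.9 CPM in Ighg2c and 53.2 CPM in Ighg3 cells. Vpreb3 in that library was at 230 CPM in Ighg1 cells (91 UMIs, 49 of them in 1 cell), 51.0 CPM in Ighg2b, 169 CPM in Ighg2c and 22.2 CPM in Ighg3 cells, and in male spleen at 0, 32.0, 48.4 and 17.0 CPM in the same order. These are values of single sums and were not tested.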
